A study of Mus musculus with 119 samples.

Results

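The early response of macrophages to LPS was measured by RNA-seq while the MKK1/2 inhibitor PD0325901 was present, so that the genes that LPS changed without normal ERK1/2 activation could be listed. Bone marrow-derived macrophages (BMDMs) of wild-type C57BL/6(NIMR) mice, grown in L-cell conditioned medium, received 0.1 µM PD0325901 for 10 min and then LPS at 100 ng/ml for 0.5 h (6 libraries). Their control was the set of 3 libraries from cells held in PD0325901 for 40 min without LPS, so that time on the inhibitor was equal. These 9 libraries, taken by their labels, were 7.56% of those in the series. Both groups carry the inhibitor for 40 min in all, and how its 40 min libraries without LPS differed from those of 10 min is given beside the results. Among the 6 LPS libraries the 3 closest pairs by root mean square distance were replicates 3 and 6 (0.112), 1 and 4 (0.124) and 2 and 5 (0.125), where all 15 pairs ran up to 0.152. The labels do not say that these are repeats of one another. Averaged in these pairs they gave 70 genes higher and 30 lower by the rule below. The libraries named for PD0325901 are called the inhibitor experiment here. For reference they also hold 3 each from 10 min of DMSO, 10 min of PD0325901 and 70 min of PD0325901 without LPS, and 6 from PD0325901 with LPS for 1 h. Other libraries of the series are from untreated WT cells without LPS and with LPS for 0.5 h (6 libraries each). The same groups exist for Map3k8 D270A cells, whose TPL-2 kinase is inactive. These sets are grouped by library name. No library used here holds cells given DMSO and LPS together, so the inhibitor, its solvent and the set of libraries cannot be told apart in any comparison with untreated WT cells. The labels do not say whether replicates of a group came from separate cultures or mice, and the p values then measure only the spread between these libraries, which may be technical. The values are levels on a log2 scale as deposited, every difference is a difference of log2 levels, and depth per library is unknown. Since the transformation is not named and the differences may be compressed, no fold change is given. In bulk RNA, fewer cells of a type and less RNA per cell cannot be told apart.

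LPS is sensed by TLR4, whose adaptors MyD88 and TRIF start several signalling branches in macrophages. One of them, the IKK complex, frees NF-kB from its IkB inhibitors and also releases the kinase TPL-2 from the NF-kB1 precursor p105. TPL-2 phosphorylates MKK1/2, which phosphorylate ERK1/2. PD0325901 blocks that last step, while the p38, JNK and NF-kB branches do not pass through it. ERK1/2 phosphorylate ternary complex factors such as ELK1, partners of SRF at the CArG elements of immediate early genes such as Egr1 and Fos.

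The control libraries stood apart from the rest of the inhibitor experiment in a group of transcripts, and this bears on most of the genes counted as lower. A gene was called at an adjusted p below 0.05 (limma, Benjamini-Hochberg over 11971 genes tested) and a log2 difference of at least 1 in size. By that rule LPS under PD0325901 was followed by a higher level of 70 genes (0.585% of those tested) and a lower level of 32 (0.267%). The 32 lower genes were led by Mir6236, annotated as a microRNA locus and listed here with ribosomal RNA and nuclear noncoding RNA, and by Igfbp2 (a binding protein of insulin-like growth factors), Fabp7 (a brain fatty acid-binding protein), Olig1 (a transcription factor of oligodendrocyte precursors) and Sparcl1 (a matrix protein).

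Fabp7 stood at 8.13, 7.13 and 7.07 in the 40 min control libraries and at 3.09, 2.78, 2.85, 3.19, 3.43 and 3.19 in the 6 LPS libraries. It was at 3.13, 2.70 and 2.89 after 10 min of PD0325901 and at 8.20, 7.57 and 7.54 after 70 min. The high values were thus in the control libraries of 40 and 70 min, and the LPS libraries overlapped those of 10 min. Igfbp2 stood at 4.43, 3.75 and 7.14 after 40 min and between 0.53 and 0.58 (median 0.55) with LPS, against 0.60, 0.57 and 0.59 after 10 min. Mir6236 stood at 7.39, 8.13 and 9.13 after 40 min and between 2.26 and 2.62 (median 2.42) with LPS, against 2.68, 2.60 and 2.42 after 10 min. Of the 4 tested genes of its list it alone was called. Rn45s, the ribosomal RNA precursor, ran from 14.00 to 16.13 after 40 min and from 14.00 to 15.56 with LPS, and differed by -0.45 (adjusted p = 0.777, limma). The part of ribosomal RNA reads in the Mir6236 value was not tested. Olig1 was at 3.64, 3.53 and 3.18, and Sparcl1 at 3.45, 3.27 and 3.22, after 40 min, with every LPS library below 1 for both. The other 27 genes, among them Slc1a3 and Serpine2, the adhesion genes Fat1, Jam2 and Adgrg1, and the matrix genes Tnc, Vcan and Sparc, differed by -2.27 to -1.02.

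In 28 of the 32 genes, all 6 libraries of 40 and 70 min without LPS lay above all 18 other libraries of the inhibitor experiment. Against the 10 min group, 26 of the 32 were called higher after 40 min, where 0.242% of all genes were. With the 10 min group as control, the median difference of the 32 genes was -0.02 in place of -1.33. Limma called 0 of them lower (0.0668% of all genes were), and 2 were lower at an unadjusted p below 0.05. The 40 min level helped to choose these 32 genes, so nothing is read from the counts or the median against the 10 min group. Outside the 40 and 70 min libraries, Igfbp2, Olig1 and Sparcl1 lay below 1 throughout the inhibitor experiment, too low for the filter. ChkbCpt1b and Eps8l1 were the exceptions that had not risen by 40 min, and their LPS libraries overlapped the control. Of the 6 glial markers, S100b, too low to be tested, stood at 1.04 to 1.44 after 40 min and 0.21 to 0.36 with LPS, and at 0.22 to 0.35 after 10 min. Gfap was at -1.94 to -1.91 after 40 min and near -1.97 with LPS, and Sox10 near -2.33 in both groups, at the bottom of the scale. Mbp, which was high enough to be tested, differed by -0.02. The summed level of the list, 10.42 to 10.52 after 40 min and 10.41 to 10.49 with LPS, is set by Mbp and cannot show the others. The summed level of the 10 macrophage markers was 18.82 in the control libraries and 18.67 to 18.80 with LPS, and Csf1r, the receptor of M-CSF, differed by -0.03. The neutrophil list (7 of 10 genes tested, Ly6g and Elane too low to be tested) summed to 8.48 to 8.83 after 40 min, 8.15 to 8.39 with LPS and 7.40 to 8.14 after 10 min. The part of these markers and transcripts in the other differences was not tested, and the main counts are therefore given also with the 10 min group as control.

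**Figure D1:**
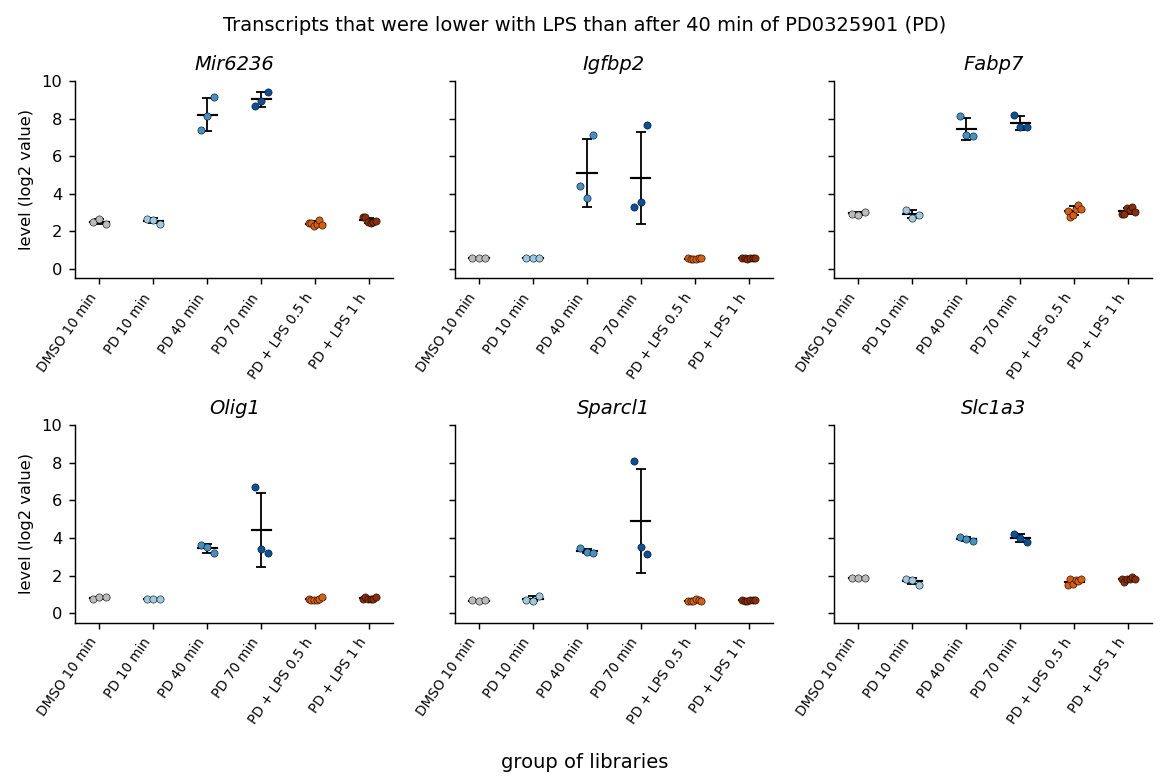
Levels (log2 values, vertical axes) of 6 transcripts called lower with LPS, in each library of the inhibitor experiment by group (horizontal axes). Points are libraries, horizontal bars means and error bars SDs. In each panel the 40 and 70 min libraries without LPS lie above the others, for Fabp7 at 8.13, 7.13 and 7.07 after 40 min, while the LPS libraries lie between 2.78 and 3.43 (median 3.14).

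The 70 genes that rose included chemokine, cytokine, NF-kB feedback, phosphatase and immediate early genes, and 46 of them stood in lists of known roles in this pathway, which were drawn up with these results known. Their differences ranged from 1.01 to 4.11 with a median of 1.66, and 9 were at 3 or more. In 69 of the 70 the 6 LPS libraries all lay above the 3 controls, as they did in 15.7% of all genes tested. The exception was Gm44504, chosen after its values were seen. The same libraries chose the 70 genes, so nothing is read from the count of 69. Against the 10 min group 72 genes rose (0.601%), of which 59 were among the 70. The gene bodies of the 70 were short: their median length in GRCm38.p6 was 5.19 kb against 22.5 kb over all genes with a position, and 51 of 70 (72.9%) were under 10 kb against 25.4% of all.

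The promoters of the 3 genes that rose most, Cxcl2, Tnf and Socs3, are shown because no other gene rose more with LPS under the inhibitor. Those of Fosb and Nr4a1 are shown because both genes responded less than in WT cells, and that of Fos because the size of its response depended on the control. The choice of Fosb, Nr4a1 and Fos was made after the values were seen. Each is the 250 bases before a RefSeq start (GRCm38.p6), written 5′ to 3′ in the gene's direction. For Socs3 and Nr4a1 that start lies inside the gene's annotated span, and so does part of the Fosb window. Capitals mark matches to a kB site, a CArG box, the cAMP response element TGACGTCA, the AP-1 site TGANTCA or the TATA box TATAAA on either strand.
Cxcl2 (chr5:90903649-90903898, plus strand): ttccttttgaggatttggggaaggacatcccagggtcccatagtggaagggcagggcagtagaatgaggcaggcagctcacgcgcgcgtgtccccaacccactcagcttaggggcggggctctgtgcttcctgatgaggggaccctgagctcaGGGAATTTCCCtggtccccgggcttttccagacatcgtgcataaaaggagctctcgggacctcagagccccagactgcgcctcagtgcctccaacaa
Tnf (chr17:35202008-35202257, minus strand): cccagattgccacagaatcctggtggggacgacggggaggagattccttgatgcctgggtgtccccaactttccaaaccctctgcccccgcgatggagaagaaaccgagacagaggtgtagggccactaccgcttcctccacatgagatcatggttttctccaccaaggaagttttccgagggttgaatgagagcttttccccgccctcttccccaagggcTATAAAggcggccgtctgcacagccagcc
Socs3 (chr11:117969367-117969616, minus strand): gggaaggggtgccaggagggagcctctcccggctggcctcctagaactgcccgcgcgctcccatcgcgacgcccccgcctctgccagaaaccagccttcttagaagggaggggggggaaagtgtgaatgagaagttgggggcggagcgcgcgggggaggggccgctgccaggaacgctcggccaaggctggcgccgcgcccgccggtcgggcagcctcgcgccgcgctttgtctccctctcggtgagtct
Fosb (chr7:19310046-19310295, minus strand): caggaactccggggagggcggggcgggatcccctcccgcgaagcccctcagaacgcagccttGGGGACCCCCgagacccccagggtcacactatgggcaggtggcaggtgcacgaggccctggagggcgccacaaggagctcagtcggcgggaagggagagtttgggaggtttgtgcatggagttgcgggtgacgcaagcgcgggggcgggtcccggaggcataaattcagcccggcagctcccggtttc
Nr4a1 (chr15:101266596-101266845, plus strand): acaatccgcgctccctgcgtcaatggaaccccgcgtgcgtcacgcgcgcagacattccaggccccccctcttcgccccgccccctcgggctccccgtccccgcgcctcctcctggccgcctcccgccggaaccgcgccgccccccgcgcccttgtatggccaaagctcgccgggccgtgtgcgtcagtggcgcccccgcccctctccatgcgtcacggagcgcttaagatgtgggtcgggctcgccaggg
Fos (chr12:85473640-85473889, plus strand): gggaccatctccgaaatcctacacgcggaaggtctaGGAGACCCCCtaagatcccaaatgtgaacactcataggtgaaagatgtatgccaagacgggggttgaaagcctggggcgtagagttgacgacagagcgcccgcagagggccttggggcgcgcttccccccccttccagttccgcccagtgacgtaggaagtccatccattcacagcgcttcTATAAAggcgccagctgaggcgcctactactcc

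Cxcl2 held a pair of overlapping kB matches within 97 to 87 bases before the start. Tnf held TATAAA 29 to 24 bases before its start and no other match. Fosb held a kB match 188 to 179 bases before its start. Fos held a kB match 214 to 205 bases and TATAAA 33 to 28 bases before its start. The windows of Socs3 and Nr4a1 held no match, which says only that these letters are not in them. A start in the table was found for 51 of the 70 genes that rose and for 9589 of all genes tested. A kB match was in 9 of the 51 (17.6%), those of Ccrl2, Cxcl1, Cxcl2, Fos, Ier3, Irf1, Nfkbia, Sdc4 and Tnfaip3, and in 4.35% of all 9589. TGACGTCA was in 4 of the 51 (7.84%; Btg2, Dusp1, Plk2 and Ppp1r15a) against 2.77% of all, and TGANTCA in 4 (7.84%; F3, Il1a, Tnfaip3 and Zfp36l1) against 4.29%. TATAAA was in 7 (13.7%) against 6.23%, and a CArG box in 2 (3.92%; Dusp5 and Zfp36) against 1.05%. These matches are a description of letters and were not tested.

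Secreted mediators were among the genes that rose most. Cxcl2 (chr5:90903899-90905938), a chemokine for neutrophils, stood at 9.68, 9.67 and 9.66 in the controls and at 13.67, 13.86, 13.81, 13.76, 13.81 and 13.76 with LPS. The LPS libraries lay far above the controls and close to each other. The difference was 4.11 ± 0.10 (SE; adjusted p = 2.29e-58, limma). Cxcl1, a close relative of Cxcl2, rose from 8.08, 8.12 and 8.12 to 11.63, 11.82, 11.57, 11.44, 11.89 and 11.59, by 3.55 ± 0.13 (adjusted p = 1.91e-43, limma). Tnf (chr17:35199367-35202007), the cytokine that in turn activates NF-kB in responding cells, rose from 11.31, 11.36 and 11.36 to 15.25, 15.26, 15.38, 15.36, 15.25 and 15.36. Its difference of 3.97 ± 0.10 (adjusted p = 1.59e-58, limma) was larger than the range of its replicates in either group. Tnfsf9, the ligand of the costimulatory receptor 4-1BB, rose from 9.09, 9.11 and 9.01 to 12.39, 12.21, 12.36, 12.36, 12.10 and 12.42, by 3.23 ± 0.13 (adjusted p = 2.45e-40, limma).

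Of the 18 cytokine genes tested, 5 rose, and the median difference over them was 0.27, beside -0.00281 over all genes tested. Besides Tnf and Tnfsf9 these were the interleukin-1 genes Il1a (1.75) and Il1b (2.81) and the anti-inflammatory Il10 (2.27). Osm, a cytokine of the IL-6 family, was at 0.95 with the 40 min and 1.13 with the 10 min control, below and above the size needed. Il6 was at -0.04, Il12b, the p40 subunit of IL-12, at 0.06, and Ifnb1, which encodes IFN-β, at 0.22, none of them called. Of 15 chemokine genes 6 rose with the 40 min control and 3 with the 10 min control. Cxcl1, Cxcl2 and Ccl3, a chemokine made by macrophages, passed with both. Ccl2, Ccl4 and Ccl7, which attract monocytes and T cells, differed by 1.21, 1.33 and 1.27 with the 40 min control and by 0.59, 0.83 and 0.57 with the 10 min control, which ended their calls. Cxcl3 was at 0.73, and the 9 chemokine genes not called ranged from -0.37 to 0.73.

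Of 11 genes for NF-kB subunits and IkB proteins 3 were called, all of them IkB genes, and 6 were higher on adjusted p alone, these included, where 9.38% of all genes were. Nfkbia (chr12:55489409-55492647), which encodes IkBα and retains NF-kB in the cytoplasm, rose from 11.46, 11.46 and 11.46 to 14.70, 14.65, 14.72, 14.72, 14.63 and 14.65. The 6 LPS libraries spanned 14.63 to 14.72, and the difference was 3.22 ± 0.06 (adjusted p = 3.98e-69, limma). Nfkbiz, which encodes the nuclear IkBζ needed for secondary response genes, rose from 10.48, 10.49 and 10.49 to 13.82, 13.69, 13.71, 13.80, 13.63 and 13.71, by 3.24 ± 0.10 (adjusted p = 6.19e-51, limma). Nfkbid, another nuclear IkB protein, rose by 1.97 ± 0.12. The 8 genes of the list that were not called differed by between -0.04 and 0.37. Tnfaip3 (chr10:19000910-19015410) encodes A20, a ubiquitin-editing enzyme that ends IKK signalling. It rose from 11.43, 11.43 and 11.42 to 14.47, 14.39, 14.45, 14.45, 14.33 and 14.47, by 3.004 ± 0.11 (adjusted p = 3.77e-43, limma). With Zc3h12a, the gene of the RNase Regnase-1 (1.18), it made the 2 called of 15 feedback and survival genes, whose others lay between -0.00152 and 0.79.

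**Figure D2:**
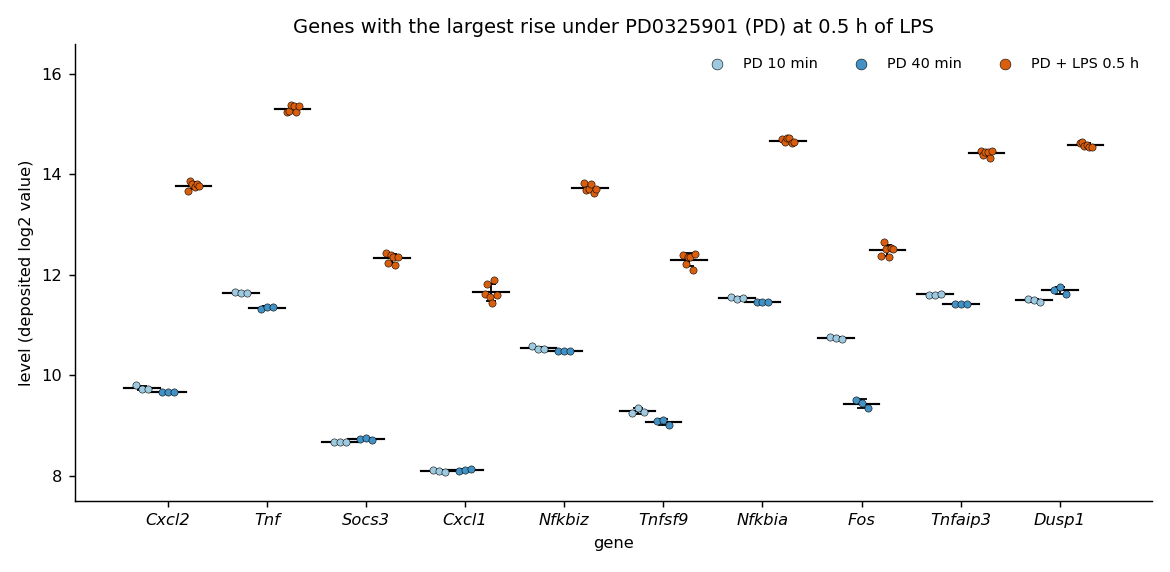
Levels (log2 values, vertical axis) of the 10 genes with the largest rise (horizontal axis) in each library after 10 min and 40 min of PD0325901 and with LPS for 0.5 h. Points are libraries, horizontal bars means and error bars SDs. All LPS libraries lie above both sets of controls, for Cxcl2 at 13.67 to 13.86 against 9.68, 9.67 and 9.66, and the Fos controls differ between 10 and 40 min.

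Some genes that limit cytokine and MAP kinase signalling rose as well. Of 9 SOCS and RGS inhibitors tested, Socs3 and Rgs1 rose, and the other 7 lay between -0.32 and 0.55. Socs3, an inhibitor of JAK kinases at the gp130 receptor, stood at 8.73, 8.75 and 8.70 in the controls and at 12.43, 12.24, 12.40, 12.36, 12.19 and 12.36 with LPS. Its difference was 3.60 ± 0.11 (adjusted p = 3.02e-49, limma). Dusp1, a nuclear phosphatase that inactivates p38 and JNK, rose from 11.70, 11.77 and 11.61 to 14.62, 14.64, 14.57, 14.58, 14.55 and 14.54, by 2.89 ± 0.10 (adjusted p = 1.72e-44, limma). Dusp2, a phosphatase induced in activated leukocytes, rose by 2.79 ± 0.14. These were 2 of 5 genes in the p38 and JNK phosphatase list. Of 12 tested genes known as feedback genes of ERK signalling, 5 rose: Phlda1 (2.85), Ier3 (2.28), the ERK phosphatase genes Dusp5 (1.78) and Dusp4 (1.55), and Errfi1 (1.65), an inhibitor of EGF receptors. Each of the 5 also passed with the 10 min control. Spry1, a Sprouty inhibitor of receptor tyrosine kinases, was at -0.00247 with the 40 min and 0.86 with the 10 min control, and Spry2 at 0.96 and 0.45.

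Of 9 genes for mRNA decay factors, 4 rose with either control. Zfp36, which encodes tristetraprolin and destabilizes AU-rich mRNAs such as that of Tnf, rose by 2.62 ± 0.10 (adjusted p = 6.10e-42, limma). Btg2, an antiproliferative factor that recruits the CCR4-NOT deadenylase, rose by 2.18 ± 0.08, Zfp36l1, a relative of Zfp36, by 1.21 and Zc3h12a by 1.18. Ptgs2, which encodes the prostaglandin synthase COX2, rose by 2.68 ± 0.20. In its list of 20 effector genes 5 rose, among them the receptor genes Ccrl2 (1.86) and Gpr84 (1.40) and the transcription factor gene Myc (1.98), and the other 15 lay between -0.32 and 0.91. Of 12 stress and growth arrest genes 3 rose, Plk2 (1.499), a polo-like kinase, Gadd45b (1.29) and the pseudokinase gene Trib1 (1.04), and the other 9 lay between -0.42 and 0.74. Irf1, an interferon regulatory factor and a target of NF-kB, rose by 1.49 and was the only gene called of the 18 interferon genes and interferon targets tested. The others lay between -0.70 and 0.59. No call was made among the 13 cytoskeletal targets of SRF, which ranged from -0.17 to 0.09, nor among the 12 genes of TLR4 and its adaptors (-0.05 to 0.501). On adjusted p alone limma gave 0 of the SRF targets and 4 of the TLR4 genes, all 4 higher, where 9.38% of all genes were higher and 5.56% lower. Within the TPL-2, ERK and ternary complex factor genes, Map3k8, which encodes TPL-2, was at 0.73 (adjusted p = 8.24e-13, limma), below the size needed.

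The 24 risen genes outside the lists differed by 1.01 to 2.34. The largest were Csrnp1, a nuclear protein induced by growth signals (2.34), and Ppp1r15a, the GADD34 subunit that directs dephosphorylation of eIF2α (2.31). Gdf15, a stress-induced member of the TGF-β family, was at 2.09, Gem, a small GTP-binding protein, at 1.92, the kinase gene Pim1 at 1.75 and Cd69, a marker of activated leukocytes, at 1.67. F3, which encodes tissue factor, rose by 1.46, Mir155hg, the host transcript of miR-155, by 1.40, the heat shock gene Hspa1a by 1.47, the phosphodiesterase gene Pde4b by 1.22 and Sdc4, a heparan sulfate proteoglycan, by 1.13. Each of these also passed with the 10 min control.

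The immediate early genes split. Of 15 tested, 8 rose under PD0325901 and 10 in untreated WT cells, with median differences of 1.45 and 2.37. Junb, an AP-1 subunit, rose by 2.05 ± 0.08, Ier2 by 2.04 ± 0.10, the nuclear receptor gene Nr4a1 by 1.95 ± 0.22 and the zinc finger gene Egr2 by 1.80 ± 0.14. Of 13 AP-1 genes and partners 4 rose, Fos, Junb, Jun (1.44) and the small Maf gene Maff (1.45), and the other 9 lay between -0.27 and 0.46. Fosb stayed within 6.64 to 6.69 with LPS, against 6.56, 6.54 and 6.51 in the controls, and its difference of 0.13 did not pass (adjusted p = 0.617, limma). Egr3 was at 0.91 ± 0.16, below the size needed, and Nr4a2 and Nr4a3 at 0.01 and -0.08.

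For a set of genes the size of the response depended on which cells without LPS served as control. Several stood lower after a longer time on the inhibitor without LPS. No DMSO group of 40 or 70 min is among the libraries, so the inhibitor and the time in culture or handling cannot be told apart in these changes. Fos was at 10.77, 10.75 and 10.72 after 10 min of PD0325901, at 9.52, 9.44 and 9.35 after 40 min and at 9.14, 9.15 and 9.07 after 70 min. With LPS it was at 12.38, 12.66, 12.52, 12.35, 12.53 and 12.51. The LPS libraries lay above all of these, but the difference was 3.06 ± 0.13 with the 40 min control and 1.74 ± 0.13 with the 10 min control. Between 10 and 40 min without LPS the Fos level fell by 1.31 (adjusted p = 5.00e-11, limma).

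Myc fell from 9.76, 9.77 and 9.70 to 8.77, 8.92 and 8.83 and then stood at 8.16, 8.01 and 7.86. Dusp6, the cytoplasmic ERK phosphatase whose level is known to follow ERK activity, fell from 9.69, 9.64 and 9.75 to 8.58, 8.58 and 8.56 and then stood at 7.79, 7.46 and 7.58. Rgs1, a regulator of G protein signalling, fell from 12.47, 12.56 and 12.55 to 11.52, 11.47 and 11.53 and then stood at 10.52, 10.60 and 10.58. These drops between 10 and 40 min passed the test, at adjusted p values of 8.87e-15, 3.32e-12 and 1.65e-14 (limma). With LPS the level of Dusp6 was between 9.31 and 9.44 (median 9.41), above the 40 min and below the 10 min libraries. Its difference was 0.82 with the 40 min and -0.29 with the 10 min control. For Rgs1 these were 1.59 and 0.57, and for Myc 1.98 and 1.08. Egr1, the zinc finger factor that is a classic target of ERK and ternary complex factors, fell between 10 and 40 min by 0.89 (adjusted p = 0.00299, limma).

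Over all genes, 29 were called higher (0.242%) and 5 lower (0.0418%) at 40 than at 10 min of PD0325901. On adjusted p alone, 11 of the 70 genes that rose with LPS were lower at 40 min, where 2.26% of all genes were, and 2 were higher, where 1.32% were. The 40 min level also chose those 70 genes, so nothing is read from that count. Trib1 and Gadd45b were the 2 higher ones, and their differences were 1.64 and 1.83 with the 10 min control. Between 10 min of DMSO and 10 min of PD0325901 limma called 0 genes, and 245 passed an unadjusted p below 0.05. The 11 genes whose call rested on the 40 min control were Atp6v0c, Ccl2, Ccl4, Ccl7, Dnajb4, Gm6377, Hbegf, Mir684-1, Rasgef1b, Rgs1 and Sox7.

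**Figure D3:**
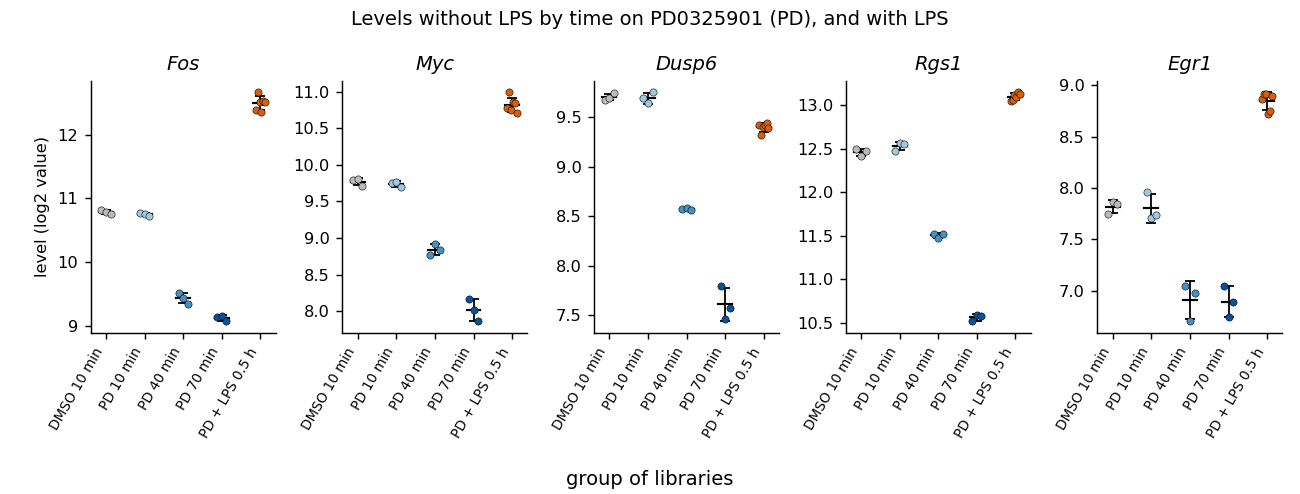
Levels (log2 values, vertical axes, each with its own range) of 5 genes in each library after 10 min of DMSO, 10, 40 and 70 min of PD0325901 without LPS, and PD0325901 with LPS for 0.5 h (horizontal axes). Points are libraries, horizontal bars means and error bars SDs. Fos stands at 10.77, 10.75 and 10.72 after 10 min and at 9.52, 9.44 and 9.35 after 40 min, and for Dusp6 the LPS libraries lie between the 10 and the 40 min libraries.

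The response was then set beside that of untreated WT cells, to ask which early genes LPS induces less, or more, when MKK1/2 are inhibited. In WT cells 74 genes rose at 0.5 h (0.618%), and 58 of them were among the 70 that rose under PD0325901. This is 78.4% of the WT list and 82.9% of the other. Of the 16 WT genes that were not called under the inhibitor, 13 were higher there on adjusted p alone, as 9.38% of all genes were. Over the 74 genes the median response was 1.78 in WT cells and 1.58 under PD0325901. The WT response chose these genes, so nothing is read from the order of the medians. The WT libraries with LPS fell into sets, with Il1b at 11.11 to 11.42 in replicates 4 to 6 and 12.37 to 12.76 in replicates 7 to 9, and values are given below with each set alone. The difference of the responses was taken as an interaction in the same fit. It called a smaller response for 36 genes (0.301%) and a greater one for 3 (0.0251%). Of the 36, 28 were among the 32 lower genes described above. The other 8 were Egr1, Fosb, Egr3, Ier2, Nr4a1, Dusp2, Spry1 and Fscn1. Fscn1, which encodes an actin-bundling protein, differed by -1.16 with the 40 min and 0.10 with the 10 min control. Against the 10 min group 10 genes had a smaller response (0.0835%) and 2 a greater one (0.0167%), and Egr1, Egr3, Fosb, Ier2 and Nr4a1 were called smaller with either control.

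Egr1 (chr18:34861207-34864956) stood between 7.70 and 8.33 (median 8.02) in WT cells without LPS and between 13.02 and 14.27 (median 13.17) with it. Under PD0325901 it was at 7.04, 6.70 and 6.98 without LPS and at 8.86, 8.92, 8.91, 8.72, 8.75 and 8.89 with it. The LPS groups did not overlap. The response was 5.34 ± 0.14 in WT cells and 1.94 ± 0.18 under PD0325901, a difference of -3.40 ± 0.23 (adjusted p = 1.90e-23, limma). It was -4.29 when the 10 min control was used. The LPS libraries under PD0325901 nevertheless all lay above the 3 controls, and above the 10 min libraries at 7.96, 7.70 and 7.74.

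Fosb (chr7:19302696-19310118), a partner of Jun proteins in AP-1, lay between 7.89 and 9.34 (median 8.65) in WT cells with LPS and between 6.59 and 6.67 (median 6.61) without. The response was 1.997 ± 0.12 in WT cells and 0.13 ± 0.14 under PD0325901, where every LPS library stood below every WT library with LPS. The difference was -1.87 ± 0.18 (adjusted p = 3.59e-14, limma). Egr3 (chr14:70077317-70082613), a relative of Egr1, lay between 8.95 and 10.03 (median 9.44) in WT cells with LPS and between 7.27 and 7.44 (median 7.35) under PD0325901 with LPS. Its response was 2.46 ± 0.13 against 0.91 ± 0.16, a difference of -1.55 ± 0.21 (adjusted p = 3.78e-08, limma).

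Ier2 (chr8:84661331-84662852), an intronless immediate early gene, lay between 12.81 and 13.22 (median 13.00) in WT cells with LPS and between 11.42 and 11.59 (median 11.50) under PD0325901. The response was 3.33 ± 0.08 against 2.04 ± 0.10, a difference of -1.29 ± 0.12 (adjusted p = 2.25e-14, limma). Nr4a1 (chr15:101253902-101274795), the orphan nuclear receptor Nur77, lay between 10.14 and 11.58 (median 10.91) in WT cells with LPS and between 8.95 and 9.23 (median 9.12) under PD0325901. The response was 3.19 ± 0.18 against 1.95 ± 0.22, a difference of -1.24 ± 0.28 (adjusted p = 0.00497, limma). The 3 WT replicates numbered 4 to 6 alone gave -0.69 for Nr4a1 (adjusted p = 0.456, limma), and replicates 7 to 9 gave -1.79. For Egr1 these parts of the WT group gave -3.17 and -3.63, for Fosb -1.35 and -2.39, for Egr3 -1.13 and -1.97 and for Ier2 -1.11 and -1.48, all past the test.

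Dusp2 lay between 10.95 and 12.20 (median 11.60) in WT cells with LPS and between 10.68 and 10.96 (median 10.85) under PD0325901, and these groups met. Its difference was -1.01 ± 0.18 with the 40 min and -0.90 with the 10 min control, and it was -0.48 (adjusted p = 0.113, limma) with WT replicates 4 to 6 alone and -1.55 with 7 to 9, so its call did not hold with every choice. For Spry1 the difference was -1.004 and -0.14, and it was -0.70 (adjusted p = 0.0653, limma) with WT replicates 4 to 6 alone, -1.31 with 7 to 9 and -0.996 with the replicate block, below the size needed. Its level without LPS stood at 4.28, 4.20 and 4.13 after 10 min and at 4.99, 5.24 and 4.98 after 40 min. Btg2, Ier3, Junb and Zfp36 had responses smaller by 0.68, 0.60, 0.54 and 0.47, which passed on adjusted p with either control and not on size. With WT replicates 4 to 6 alone the differences were -0.46, -0.36, -0.30 and -0.26, and of these only that of Btg2 passed (adjusted p = 0.0361 against 0.393, 0.234 and 0.588, limma). With the LPS libraries averaged in pairs Ier3 and Zfp36 did not pass (adjusted p = 0.0512 and 0.124, limma). On adjusted p alone and without the replicate block, 16 of the 74 WT genes had a smaller and 2 a greater response, where 0.76% and 0.727% of all genes did. With the block these shares of all genes were 4.16% and 5.05%. The WT response that chose the 74 is subtracted here, which favours smaller responses, so nothing is read from these counts. With both controls required, 10 of the 74 had a smaller and 0 a greater response on adjusted p. Over all genes tested, 13 had a smaller and 9 a greater response with both. The choice of the 74 bears on these counts too, and nothing is read from them. The 10 min control alone gave 1.33% of all genes a smaller and 0.317% a greater response.

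For the 10 genes that rose most under PD0325901 no difference from WT cells passed the test with the 40 min control and all WT libraries, and several passed with either set of WT replicates alone, in opposite directions. The difference of the responses was 0.15 for Cxcl2, 0.16 for Tnf, 0.21 for Socs3 (SE 0.15), 0.05 for Nfkbia (SE 0.08) and -0.14 for Nfkbiz. The largest in size among the 10 leading genes were -0.30 for Cxcl1 and 0.30 for Tnfaip3, neither passing. The set of WT replicates turned the sign for 9 of the 10, all but Fos. With replicates 4 to 6 alone the difference was 0.78 for Tnfaip3, 0.68 for Socs3, 0.51 for Tnf and 0.495 for Cxcl2, each passing on adjusted p (4.98e-08, 0.000283, 0.00165 and 0.014, limma). It was 0.31 for Nfkbia and 0.33 for Nfkbiz, also passing (adjusted p = 0.00326 and 0.047, limma), and Nfkbiz passed the other way with replicates 7 to 9. With replicates 7 to 9 alone it was -0.67 for Cxcl1, -0.61 for Nfkbiz and -0.60 for Tnfsf9, each passing on adjusted p (0.0381, 1.14e-06 and 0.00268, limma), with Tnfaip3 at -0.18, Socs3 at -0.25, and Tnf and Cxcl2 at -0.20. The response under PD0325901 chose these 10 genes and is a term of this difference, so nothing is read from their directions. A difference that does not pass is not shown to be absent.

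Of the 70 genes, 12 were not called in WT cells: Atp6v0c, Ccl2, Ccl7, Dnajb4, Gm44504, Gm6377, Hbegf, Mir684-1, Rasgef1b, Rgs1, Sox7 and Trib1. Their WT responses ran from -0.12 to 0.98, and 9 of them were higher in WT cells on adjusted p alone, as 8.19% of all genes were. For 3, Atp6v0c, Mir684-1 and Rgs1, the response under PD0325901 was greater than in WT cells on adjusted p with the 40 min control, and for 0 with both controls (limma). With the replicate block, which takes the WT numbers as pairs, 6 of the 12 were greater on adjusted p, where 5.05% of all genes were. The additional genes were Ccl2 (0.40, adjusted p = 0.0118), Ccl7 (0.36, adjusted p = 0.0303) and Dnajb4 (0.35, adjusted p = 0.00776, limma). The response under PD0325901 chose these genes and is a term of the difference, so nothing is read from either count. Ccl2 and Ccl7 had responses of 0.80 and 0.88 in WT cells, and Hbegf, a ligand of the EGF receptor, of 0.81 in WT cells and 1.05 under PD0325901.

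Fos again depended on the control. Its response was 3.06 under PD0325901 and 3.15 in WT cells with the 40 min control, a difference of -0.09 (adjusted p = 0.951, limma). With the 10 min control the difference was -1.41 (adjusted p = 1.15e-09, limma). Its levels with LPS were between 13.59 and 13.99 (median 13.86) in WT cells and between 12.35 and 12.66 (median 12.51) under PD0325901 and did not overlap. Myc and Rgs1 had greater differences than WT cells by 0.95 and 0.77 with the 40 min control, and by 0.05 and -0.26 with the 10 min control. Their mean levels with LPS were 10.82 and 13.10 under PD0325901 and 10.74 and 13.17 in WT cells. The 3 genes called greater were Atp6v0c, a subunit of the vacuolar proton pump (1.13), Mir684-1 (1.06) and the pseudogene Rps15a-ps6 (1.02). Against the 10 min group they were at -0.13, 0.32 and 0.46, and 0 were called with both controls by limma. With the replicate block Rps15a-ps6 stood at 0.99, below the size needed. Atp6v0c was at 0.98, below that size, with WT replicates 4 to 6 alone and at 1.27 with 7 to 9. Mir684-1 did not pass with either set alone (adjusted p = 0.162 and 0.0629, limma). Rps15a-ps6 was at 1.18 with 4 to 6 (adjusted p = 0.022) and at 0.87 with 7 to 9 (adjusted p = 0.231, limma). Reads of Rps15a-ps6 and Mir684-1 may be shared with near-identical copies.

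**Figure D4:**
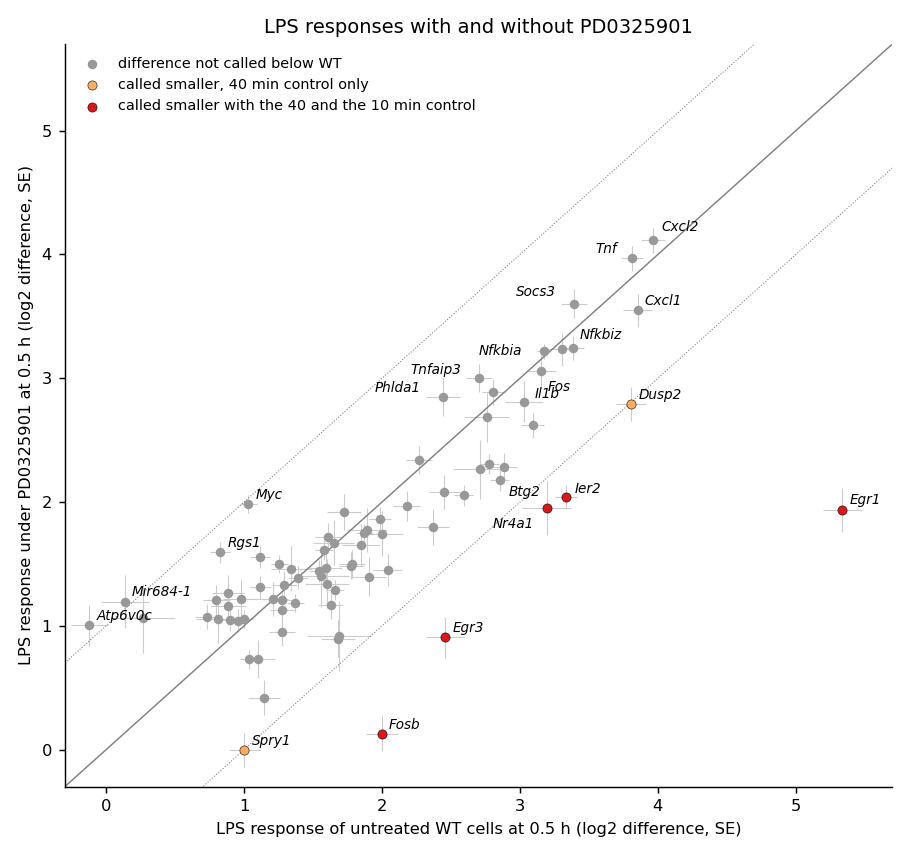
LPS response under PD0325901 (vertical axis) against that of untreated WT cells (horizontal axis), as log2 differences with SEs. Shown are the genes called higher under PD0325901 and those of the lists of known roles called higher only in WT cells. Bmp2, Gm16712, H2-Q5, Hspa1b, Prdm1, Sele and Tmem200b, also called higher only in WT cells, are not shown. The solid line marks equal responses and the dotted lines a difference of 1. Egr1 (5.34 in WT cells, 1.94 under PD0325901), Fosb, Egr3, Ier2 and Nr4a1 lie below the lower dotted line, and Tnf, Cxcl2, Nfkbia and Socs3 lie near the solid line.

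Map3k8 D270A cells lack the activity of the kinase upstream of MKK1/2 in this pathway, and their responses are given side by side with those under PD0325901. Both were set against the same WT libraries, so no overlap between them is reported. For Egr1 the response was 0.76 in Map3k8 D270A cells, 1.94 under PD0325901 and 5.34 in WT cells. With LPS its level was between 8.66 and 9.15 (median 8.90) in Map3k8 D270A cells. For Fosb the responses were 0.53, 0.13 and 1.997, for Egr3 0.47, 0.91 and 2.46, for Ier2 1.72, 2.04 and 3.33, and for Nr4a1 1.88, 1.95 and 3.19, in the same order. The Map3k8 D270A response was smaller than that of WT cells for each of these genes, at adjusted p values (limma) from 4.36e-36 for Egr1 to 0.0012 for Nr4a1. Without LPS, Egr3 stood at 7.60 to 8.13 in Map3k8 D270A cells and at 6.81 to 7.20 in WT cells. That higher level without LPS is a term of its smaller response. With LPS it stood at 8.12 to 8.52 in Map3k8 D270A cells. For Tnf the responses were 3.57, 3.97 and 3.81, and for Nfkbia 2.97, 3.22 and 3.17. The mutant and the inhibitor were not tested against each other.

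**Figure D5:**
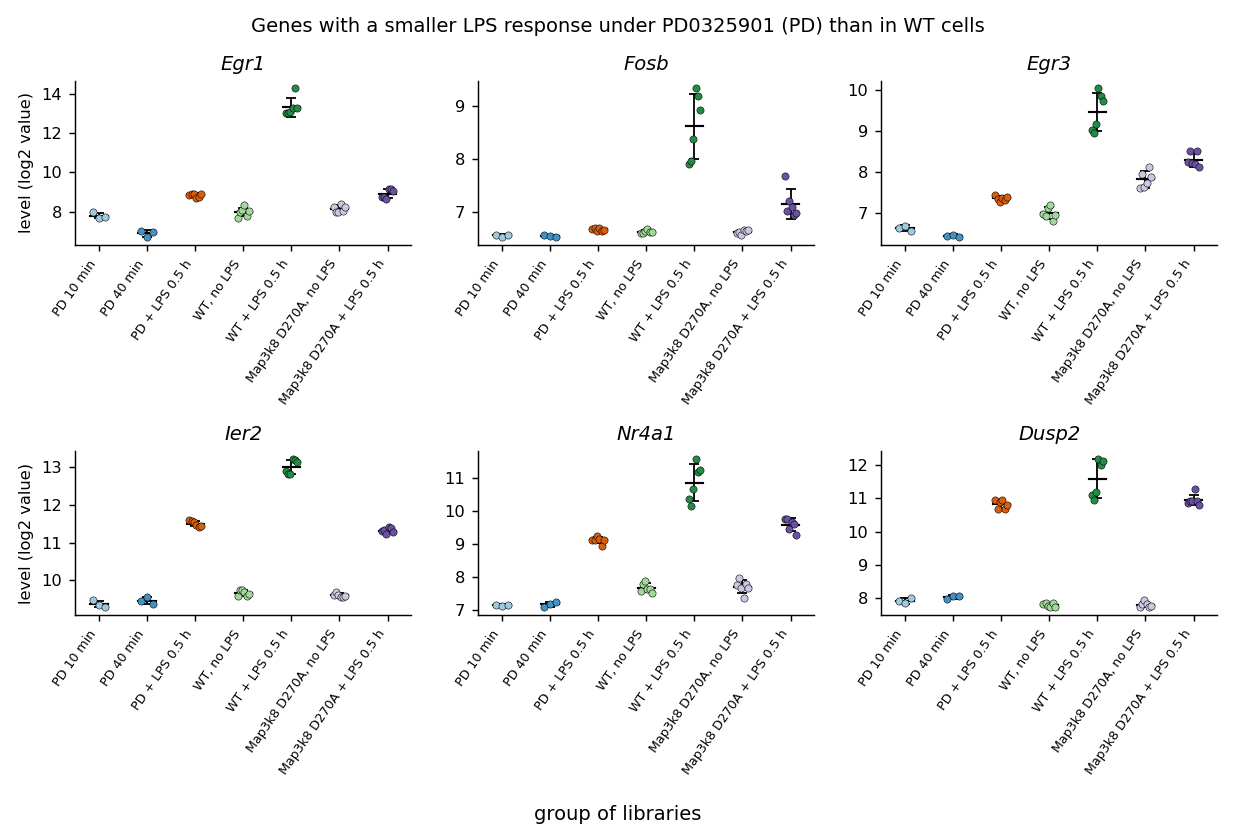
Levels (log2 values, vertical axes, each with its own range) of 6 genes with a smaller LPS response under PD0325901 than in WT cells, in each library by group (horizontal axes). Points are libraries, horizontal bars means and error bars SDs. With LPS, Egr1 lies between 8.72 and 8.92 (median 8.88) under PD0325901 and between 13.02 and 14.27 (median 13.17) in WT cells, and only for Dusp2 do these groups overlap among the 6 genes.

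At 1 h of LPS under PD0325901, set against the 70 min control, 63 of the 70 genes were called higher, where 2.99% of all genes were. Their median difference over the 70 was 2.52 in place of 1.66, and the change between the times was not tested. It was 4.71 at 1 h for Il1a, 5.09 for Ptgs2, 5.22 for Tnfsf9 and 3.85 for Ccl2, each above its value at 0.5 h. Smaller values at 1 h than at 0.5 h were seen in 12 of the 70, among them Fos (0.98), Ier2 (0.58), Btg2 (0.89), Jun (0.66) and Egr1 (0.28). Without LPS, Fos, Egr1 and Jun were lower on average at 70 than at 10 min of PD0325901, and against the 10 min group Fos and Egr1 turned to -0.65 and -0.63 at 1 h (adjusted p = 1.77e-05 and 0.00211, limma), Jun to 0.01, while Ier2 was at 0.84 and Btg2 at 0.72. With that control 61 of the 70 were called higher at 1 h, where 3.02% of all genes were, and Ccl2 was at 2.55. This choice of control was added after seeing the data. With the 70 min control Fosb was at 0.09. Ifnb1 was at 6.69, Il12b at 4.69 and Il6 at 2.35, all called at 1 h. Without LPS, 25 of the 32 lower genes were called higher at 70 than at 10 min, where 0.242% of all genes were, and 25 of the 32 lower genes were called lower at 1 h too, where 1.36% of all genes were.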

How the data were processed

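RNA-seq libraries of bone marrow-derived macrophages were compared as levels in 1 table of 119 libraries and 18098 genes. The authors deposited normalized values on a log2 scale. For this the submitters' processing notes list STAR 2.5.1b, RSEM 1.2.29 and DESeq2 1.10.1, and the authors' methods mm10 with RefSeq genes. How the values were transformed is not given in the sources used. If its base were e, a doubling would be a difference of 0.693. Low levels may be compressed, and without counts no depth or counting error can be given.

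One value above 25 was set to missing. The 11971 genes that reached 10 on the linear scale in 3 or more libraries were fitted in limma 3.58.1 (R 4.3.3) with a mean for each group over all 119 libraries, with no covariates, and p values were adjusted by the Benjamini-Hochberg method over all genes tested. Calls needed an adjusted p below 0.05 together with a log2 difference of 1 or more in size. The LPS response was the 6 libraries with PD0325901 and LPS minus the 3 of 40 min of PD0325901, and the comparison with WT cells was the interaction term. The code was tested on simulated data with 200 changed genes. Groups and replicate numbers were taken from the labels.

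Genes were named by rule: the 10 largest rises and 5 largest falls whose libraries did not overlap, the 8 largest smaller and 4 largest greater responses than in WT cells, and every called gene of the lists of known roles. Others were added after their values were seen. The genes and lists were chosen with earlier results of these data known. The rule for promoters gave genes that were high in the 40 and 70 min controls, and 3 others were shown in their place. Gene positions and promoters are from RefSeq on GRCm38.p6. For 11472 genes tested the symbol matched, for 456 a synonym, and 43 had no position. Egr3 and Ier2 had no promoter entry. Marker lists of other cell types were summed on the linear scale, and no gene of the T, NK and B cell list or the erythroid list passed the filter.

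Replicate numbers of PD0325901 libraries were not taken as pairs. Those of WT libraries with and without LPS deviated together, with r from 0.450 to 0.790 over the 6 numbers. Numbers 6, 7, 8 and 9 matched their own number best, while 4 matched 5 and 5 matched 6. These deviations also hold the split between replicates 4 to 6 and 7 to 9, so the check cannot show pairs within a set. The labels name no shared day, and the block takes the WT numbers as pairs only as an alternative. The fit without the block was kept, and blocked values of the difference from WT cells are given where they change a call. Alternatives were other filters, libraries, variance priors, normalizations, controls, thresholds and a replicate block, each library left out in turn, and, chosen after seeing the data, a call required with both the 40 and the 10 min control.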

Additional observations from a re-analysis of the deposited data

Results flagged for a closer look

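Each named gene was tested for 1 library far from the rest among the 6 LPS libraries under PD0325901 and in the WT groups with and without LPS. Of these 195 tests of 6 libraries each, 10 found one, where chance gives about 1 in 20. In the 6 LPS libraries under PD0325901 these were Ccl3 in replicate 4 at 13.01, Dusp4 in replicate 5 at 10.77, Rps15a-ps6 in replicate 1 at 9.6, Olig1 in replicate 6 at 0.84 and Sparcl1 in replicate 4 at 0.75. In WT cells with LPS, Egr1 stood at 14.27 in replicate 8, and without that library the Egr1 difference between the responses was -3.21. Fabp7 was at 2.97 in WT replicate 9 with LPS. Without LPS, Plk2 was at 13.05 and Cebpb at 10.38 in WT replicate 9, and Olig1 at 0.97 in WT replicate 5.

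The LPS response differed between PD0325901-treated and untreated WT cells, by the interaction test, for 17 of the named genes. Egr1 differed by -3.40, Fosb by -1.87, Egr3 by -1.55, Ier2 by -1.29, Nr4a1 by -1.24, Dusp2 by -1.01 and Spry1 by -1.004. Mir6236 differed by -5.66, Igfbp2 by -4.56, Fabp7 by -4.34, Sparcl1 by -2.76, Olig1 by -2.74, Slc1a3 by -2.30 and Serpine2 by -2.27. These last 7 transcripts were high in the 40 min controls. Atp6v0c differed by 1.13, Mir684-1 by 1.06 and Rps15a-ps6 by 1.02, each in the direction of a greater response under PD0325901 and each below the size needed with the 10 min control.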

How the results depend on the processing

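The number of genes that rose was within 1.5 times of 70 under every alternative except adjusted p alone (1123) and a size threshold of ln 2 (111). The number of lower genes was 59 without a filter on low values and 12 with a minimum of 50. It was 8 with the 10 min control, none of them among the 32, 12 with the 10, 40 and 70 min groups averaged, 1 with DMSO as control, 0 with both controls required, 666 on adjusted p alone and 55 at ln 2. Smaller responses than in WT cells numbered 63 without a filter, 17 with a minimum of 50, 10 with the 10 min control, 21 with the averaged controls, 5 with both controls required and 91 on adjusted p alone. Greater responses numbered 0 with the averaged controls and with both required, 1 with LPS replicates 1 to 3 only, with WT replicates 7 to 9 only and without 40 min replicate 1, 5 at ln 2 and 87 on adjusted p alone. With 1 library left out at a time, 69 to 72 genes rose, 27 to 33 were lower, 31 to 36 had a smaller and 1 to 4 a greater response. With the 10 min control Fabp7 turned to 0.18 (0.20 for the difference from WT cells) and Atp6v0c to -0.25 (-0.13), and with DMSO as control Fabp7 turned to 0.13 and Mir684-1 to -0.10. Apart from the number of genes tested under the other filters, the cause was not tested. Same-numbered PD0325901 libraries deviated together with r = 0.263, 0.131 and -0.104, and only replicate 1 matched its own number best, so they share only a number. The replicate block, which also took the WT numbers as pairs, gave 71 higher, 33 lower, 35 smaller and 2 greater. Of the named genes it ended the calls of Spry1 (-0.996) and Rps15a-ps6 (0.99) for the difference from WT cells and that of Atp6v0c (0.96) for the response under PD0325901. In WT cells, added after seeing the data, it gave 74 higher, the same 74. The LPS libraries averaged in pairs gave 70 higher, 30 lower, 35 smaller and 2 greater, without Mir684-1. WT replicates 4 to 6 alone gave 30 smaller and 3 greater, and 7 to 9 alone 42 smaller. Egr1, Fosb, Egr3 and Ier2 were called smaller under every alternative run, Nr4a1 under all but WT replicates 4 to 6 only. A pseudocount was not needed for values on a log scale.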

Other observations

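With 10 min of PD0325901 as control, the 8 genes called lower were 9330151L19Rik, Degs2, F630028O10Rik, Neat1, Rsrp1, Snhg20, Vamp1 and Zbtb26. Neat1, the long noncoding RNA of paraspeckles, differed by -1.56 with that control and by -0.54 with the 40 min control. Eps8l1, one of the 32 lower genes, fell into 2 levels among the LPS libraries under PD0325901, with replicates 1 and 4 at 7.64 and 7.64 and the others between 5.80 and 6.10, while its controls stood at 7.61, 7.51 and 7.57.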
